A study of Mus musculus with 18 samples.

Results

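The complement system is represented here by 33 genes, chosen by symbol from a list that covers the classical, lectin, alternative and terminal arms, the regulators and the anaphylatoxin receptors. All 33 are in each of the 3 gene tables, which list 18108 genes for the Pico kit, 18051 for V4 and 19424 for TruSeq, and 21018 genes in at least 1 of them. The samples are livers of male C57/B6J mice 12 weeks old, with no allele or transgene named. 3 mice (ILB.9579, ILB.9582 and ILB.9583) received 20 µg/kg IL-1β by intraperitoneal injection and 3 (UNT.9574, UNT.9575 and UNT.9576) received saline, and the livers were taken 4 h later after perfusion with PBS. RNA of every mouse entered 3 kits, giving 18 libraries: Pico (stranded total RNA, 1.7 to 2.6 ng of input, 150 bp reads), V4 (unstranded poly(A), 0.8 to 1.3 ng, 150 bp) and TruSeq (stranded poly(A), 200 ng, 125 bp). The comparison asked how IL-1β changed the RNA of the complement genes within each kit.

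Complement is a cascade of plasma proteins, most of them made by hepatocytes, that marks and lyses microbes. The classical arm starts with C1q bound to antibody and the lectin arm with mannose-binding lectins or ficolins bound to sugars, and both cleave C4 and C2 to form a C3 convertase. The alternative arm amplifies C3 cleavage through factor B and factor D, the terminal components C5 to C9 build the membrane attack complex, and host cells are protected by soluble and membrane-bound inhibitors. IL-1β is an inflammatory cytokine and a trigger of the acute-phase response, in which the liver changes the set of plasma proteins it makes.

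Library totals of gene counts lay between 4024632 and 4134070 in Pico, between 12013453 and 12352473 in V4, and between 12348864 and 12858237 in TruSeq, so a gene at the same share of the RNA had fewer counts in Pico. The defining hepatocyte marker Alb, the gene of serum albumin, had between 116025 and 1062281 counts in each of the 18 libraries. Differences were tested with limma-voom within each kit on library totals, and a gene was called at a Benjamini-Hochberg adjusted p of at most 0.05 over all genes tested. A log2 fold change is the IL-1β mean minus the saline mean of log2 CPM. Over all genes its median was -0.17 for TruSeq, -0.12 for Pico and -0.22 for V4. TMM factors, a scaling that centres the bulk of the genes, moved this median up by 0.158, 0.131 and 0.168.

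Complement genes moved in both directions 4 h after IL-1β. In TruSeq, 23 of the 33 members were called, against 34.1% of all genes tested. Of these, 9 rose (27.3% of the members, against 12.3% of all genes) and 14 fell (42.4%, against 21.8%), while 10 were not called. Pico called 16 members (17.6% of all genes), of which 7 rose (21.2%, against 6.78%) and 9 fell (27.3%, against 10.8%). V4 called 3 (11.0% of all genes), of which 1 rose (3.03%, against 3.6%) and 2 fell (6.06%, against 7.41%). In this limma-voom fit these V4 shares were near those of all genes, and other fits of V4 called more members higher. With edgeR 4 members were higher and 2 lower in V4, beside 930 and 1002 of all 18051 genes. With DESeq2 6 were higher and 2 lower, beside 1129 and 1217 of all genes. C3 rose and Cd59a fell in all 3 kits. The median log2 fold change of the members was -0.32 in TruSeq, -0.16 in Pico and -0.30 in V4. With TMM factors the split was 10 higher and 10 lower in TruSeq (16.7% and 16.1% of all genes), 8 and 5 in Pico (9.16% and 8.16%) and 3 and 2 in V4 (4.79% and 4.84%). The groups did not overlap, with IL-1β above saline, for 9 members in TruSeq, 9 in Pico and 6 in V4 (17.1%, 12.6% and 9.09% of all genes), and with IL-1β below saline for 16, 10 and 10 (27.9%, 18.6% and 18.6%). In a bulk liver sample, fewer cells of a type and less RNA per cell cannot be told apart.

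The counts in Pico and V4 changed when a mouse was left out, for the members and for all genes. Over all genes, V4 called 649 higher and 1337 lower, and 589 and 1504 without saline mouse UNT.9576. Without any one of the other mice, V4 called 341 to 445 genes higher and 567 to 762 lower. Pico called 1228 genes higher and 1951 lower, and 741 to 971 and 1024 to 1632 when a mouse was left out. In V4, leaving out saline mouse UNT.9576 gave 2 higher and 9 lower members, and leaving out any of the other mice gave 0 higher and 0 to 2 lower. In Pico, the number of members that rose was 3 without saline mouse UNT.9575, saline mouse UNT.9576, IL-1β mouse ILB.9582 or IL-1β mouse ILB.9583, and 5 without saline mouse UNT.9574 or IL-1β mouse ILB.9579. The number that fell in Pico was 4 without IL-1β mouse ILB.9579 or ILB.9582 and 5 without saline mouse UNT.9574. Calls made in every one of the 6 leave-one-out fits covered 16 of 23 members in TruSeq, 6 of 16 in Pico (Masp1, Masp2, C3, Cfb, C4bp and Cd59a) and 0 of 3 in V4.

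**Figure D1:**
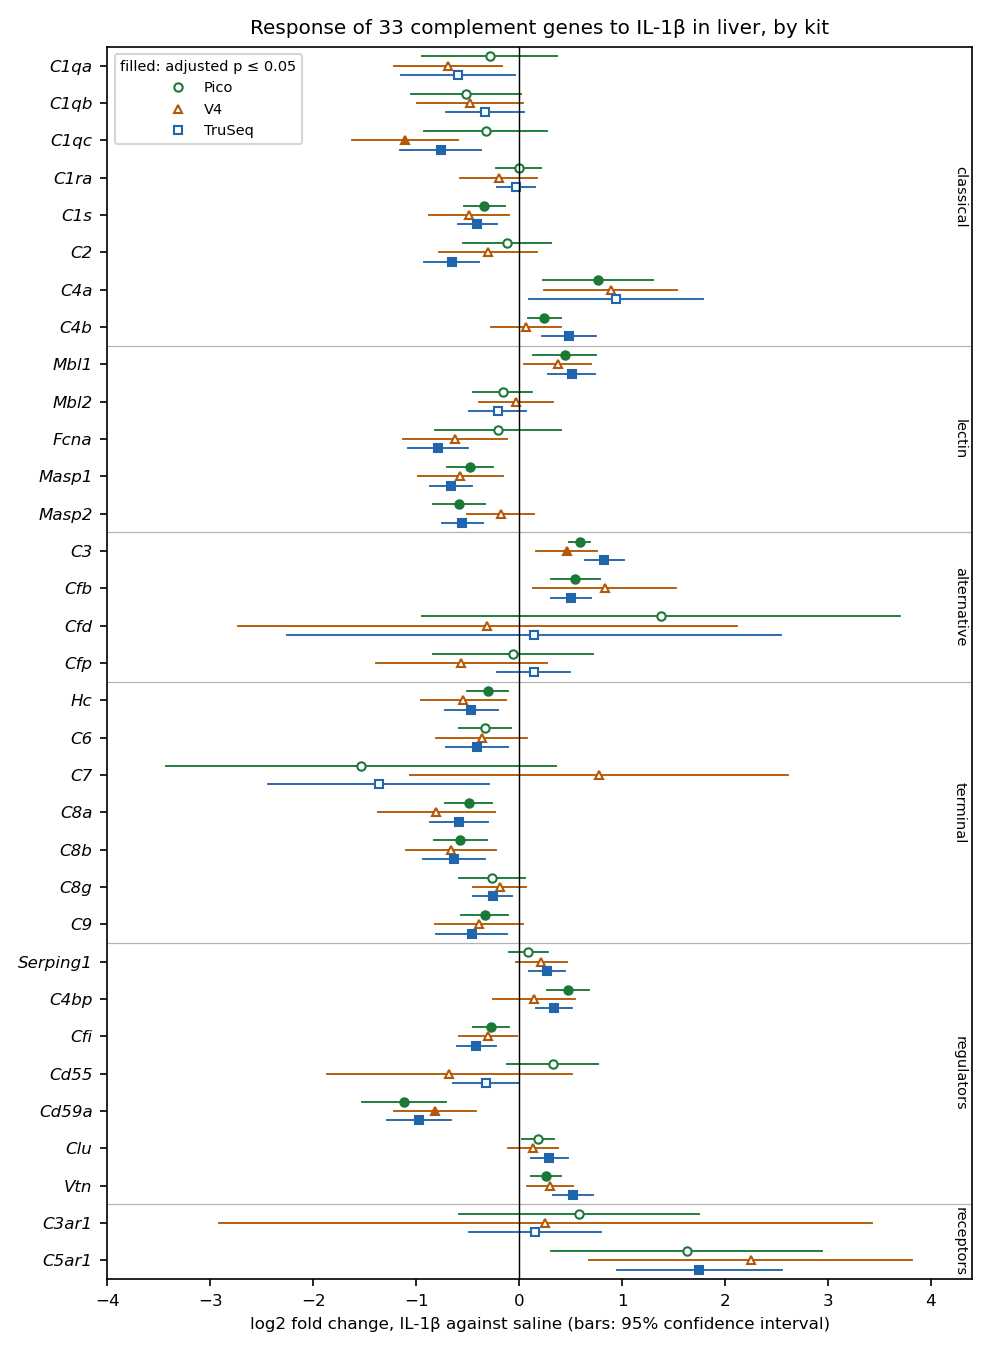
Log2 fold change of IL-1β against saline (horizontal axis) for the 33 complement genes, grouped by arm, in Pico (circles), V4 (triangles) and TruSeq (squares), with 95% confidence intervals of the limma-voom fit and filled symbols at an adjusted p of at most 0.05. C3, Cfb, Mbl1 and Vtn lie to the right in each kit, while Masp1, C8a, C8b, Cfi and Cd59a lie to the left, with wide intervals for Cfd, C7, C3ar1 and C5ar1.

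C3, the protein on which the 3 activation arms converge, lies on chromosome 17 of mm9 (ENSMUSG00000024164, minus strand, 57343397 to 57367559). In TruSeq it had 160608, 160630 and 182341 counts in IL-1β mice ILB.9579, ILB.9582 and ILB.9583, and 94837, 93065 and 103926 counts in saline mice UNT.9574, UNT.9575 and UNT.9576. In Pico the counts were 63120, 64056 and 72218 against 44280, 43599 and 46792, and in V4 25918, 25815 and 32813 against 21372, 21974 and 18084. Every IL-1β library was above every saline library in each kit, and mouse ILB.9583 was the highest in all 3. The log2 fold change was 0.83 ± 0.085 (SE) in TruSeq (1.78-fold, adjusted p = 9.12e-05), 0.59 ± 0.0489 in Pico (1.51-fold, adjusted p = 4.14e-07) and 0.46 ± 0.134 in V4 (1.38-fold, adjusted p = 0.0495). The V4 call was lost without any one of the 6 mice, with log2 fold changes of 0.35 (without ILB.9583) to 0.52 (without ILB.9579) and adjusted p-values of 0.0797 to 0.192.

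Promoter windows of RefSeq (build GRCm38.p6, 250 bases before to 50 after the gene start) were found for 23 of the 33 members, 24 windows in all because C8g has 2. They are shown for C3, Masp2, C8a, C8b, Cd59a and Vtn, members of 4 arms that were called in both Pico and TruSeq. Mbl1, Hc, C9 and C4bp were called in both kits as well, and their windows were searched but are not shown. C1qa, C1s, C2, C4a, C4b, Masp1, Cfb, Serping1, Cfi and Clu had no window. Both strands were searched for an NF-κB motif (GGG and TTTCC parted by 2 bases), TTGCNNAA (a C/EBP motif) and TTCNNNGAA (a STAT motif). In C1ra, the member window that holds 2 of them, the matches do not overlap. At least 1 match was in 1.63%, 10.8% and 8.3% of all 32851 windows, and in 1, 3 and 5 of the 24 member windows. The C3 window (chr17:57228087-57228386, minus strand) holds a C/EBP match at position -45 from the start, in capitals.
C3: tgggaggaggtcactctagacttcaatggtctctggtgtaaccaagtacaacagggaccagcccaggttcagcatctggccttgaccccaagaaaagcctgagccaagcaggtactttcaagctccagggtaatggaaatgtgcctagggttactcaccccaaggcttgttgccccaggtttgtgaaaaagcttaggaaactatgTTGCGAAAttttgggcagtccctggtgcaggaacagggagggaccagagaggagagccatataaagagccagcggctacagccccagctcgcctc
The other matches were C/EBP in C9 and C1ra, NF-κB in C3ar1, and STAT in C1ra, Masp2, C7, C8a and Vtn. A match is a description of the letters, and none of these libraries measured binding.

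Cfb, the serine protease of the alternative C3 convertase, rose with C3 in TruSeq and Pico. Its TruSeq counts were 2257, 2256 and 2091 in the IL-1β mice and 1571, 1590 and 1630 in the saline mice, with no overlap (log2 fold change 0.51 ± 0.0858, adjusted p = 0.00158). In Pico they were 1112, 1180 and 1129 against 917, 756 and 725 (0.55 ± 0.113, adjusted p = 0.00265). The V4 counts of 801, 641 and 544 against 294, 254 and 668 overlapped through saline mouse UNT.9576, and the log2 fold change of 0.83 ± 0.317 was not called by limma-voom (adjusted p = 0.126) but was called higher by edgeR and DESeq2. Of the exon bases of Cfb, 79.5% are also annotated to the readthrough gene Gm20547 on the same strand, so its counts are uncertain where reads were split between them. Cfb and the further genes given per library below, other than C3, Cd59a, C1qc and C5ar1, were chosen after their values were seen. The remaining alternative members were not called in any kit. Cfp encodes properdin, a stabilizer of the convertase, and ran from 137 to 194 counts in TruSeq with log2 fold changes of 0.14 in TruSeq, -0.06 in Pico (0.07 with TMM factors) and -0.56 in V4. Cfd encodes factor D, the protease that cleaves factor B and a product of fat cells. It had 18, 35 and 1 counts in the IL-1β mice and 3, 11 and 19 in the saline mice in TruSeq, and 113, 156 and 4 against 22, 63 and 106 in V4. Its lowest IL-1β library was that of mouse ILB.9583 in every kit. Of the adipocyte markers, Adipoq had 1 count in 1 TruSeq library and 0 in the other TruSeq libraries, whereas the list's sum was 281 to 293 counts with IL-1β and 86 to 115 with saline, with 2 of 3 called higher (Cidec and Fabp4). Their part in the Cfd values was not tested.

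Of the 8 members of the classical arm, 1 rose and 3 fell in TruSeq (12.5% and 37.5%, against 12.3% and 21.8% of all genes), 2 rose and 1 fell in Pico (against 6.78% and 10.8%), and 1 fell in V4 (12.5%, against 7.41%). The share that rose in TruSeq and the share that fell in Pico were near those of all genes. C1qc, one of 3 chains of the C1q recognition molecule (ENSMUSG00000036896, chromosome 4, minus strand, 136445719 to 136448980), fell in V4 and TruSeq. Its V4 counts were 194, 275 and 231 with IL-1β and 596, 467 and 450 with saline. In TruSeq they were 129, 191 and 189 against 332, 258 and 291, and in Pico 55, 69 and 64 against 117, 61 and 71. The groups were apart in V4 and TruSeq and overlapped in Pico, where a saline mouse (UNT.9575) had fewer counts than IL-1β mouse ILB.9582. The log2 fold change was -1.11 ± 0.235 in V4 (adjusted p = 0.0131), -0.76 ± 0.174 in TruSeq (adjusted p = 0.00791) and -0.32 ± 0.282 in Pico (adjusted p = 0.512). In V4 the call was lost without saline mouse UNT.9574 (-0.97), IL-1β mouse ILB.9579 (-0.98) or IL-1β mouse ILB.9583 (-1.11), and in TruSeq without saline mouse UNT.9574 (-0.66). The other chains, C1qa and C1qb, had negative values in every kit, from -0.28 to -0.69 for C1qa and from -0.33 to -0.51 for C1qb, and passed the test in none.

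C1q chains are made mainly by macrophages, and markers of Kupffer cells, the resident macrophages of the liver, were lower in the same libraries. The summed counts of 8 Kupffer markers were 836 to 1206 with IL-1β and 1750 to 2896 with saline in TruSeq, where 5 fell (Clec4f, Cd5l, Emr1, Csf1r and Vsig4) and Marco rose. In V4 the sums were 645 to 1003 against 1262 to 2401 with 2 of 8 lower, and in Pico 416 to 563 against 771 to 1003 with 4 of 8 lower. No marker of the list was at 0 in any library, and its part in the C1q values was not tested.

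Among the proteases and substrates of the classical arm, C1s, the protease that cleaves C4 and C2, fell in both stranded kits. Its TruSeq counts were 5932, 6339 and 5781 against 8346, 8351 and 7915 (log2 fold change -0.40 ± 0.0841, adjusted p = 0.00481, not called by edgeR), and the Pico value was -0.34 ± 0.094 (adjusted p = 0.019, and 0.156 with TMM factors). The Pico call was lost without saline mouse UNT.9574 (-0.30), IL-1β mouse ILB.9579 (-0.29) or IL-1β mouse ILB.9583 (-0.34). In V4 C1s was at -0.49 ± 0.177 with no overlap between the groups, and was not called (adjusted p = 0.109). C1ra, its partner protease, was near 0 in TruSeq (-0.03, and 0.13 with TMM factors) and in Pico (-0.0042 and 0.13), and 28.3% of its 100-base windows occur also in C1rb. C2, the protease subunit of the classical convertase, fell in TruSeq from 1122, 936 and 922 counts to 560, 608 and 666 (-0.65 ± 0.118, adjusted p = 0.00225). In Pico C2 was at -0.12 ± 0.201 (0.01 with TMM factors) and in V4 at -0.30 ± 0.218, neither called, and 40.8% of its exon bases are shared with Gm20547. C4b, the C4 substrate, rose in TruSeq from 19766, 16612 and 19065 counts to 23426, 22692 and 29595 (0.49 ± 0.119, adjusted p = 0.0109), and in Pico by 0.25 ± 0.0767 (adjusted p = 0.0349). In V4 C4b was at 0.06 ± 0.155, and the groups overlapped (adjusted p = 0.825). Without saline mouse UNT.9575 the TruSeq value of C4b was 0.41 and not called, and in Pico the call held only when IL-1β mouse ILB.9579 was left out. C4a, a near-copy of C4b known as sex-limited protein, had 1651, 1128 and 3401 counts with IL-1β and 1536, 766 and 835 with saline in TruSeq, and mouse ILB.9583 was the highest in every kit. C4a passed the test in Pico (0.77 ± 0.252, adjusted p = 0.044), where only the fit without saline mouse UNT.9574 kept the call among those that left out a mouse, and DESeq2 and thinning lost it. In TruSeq its value of 0.94 was called with TMM factors (1.10, adjusted p = 0.0495) and by edgeR, and in V4 the 0.89 was called by edgeR and DESeq2. The 2 genes share 12.4% and 15.2% of their 100-base windows, so reads between them are uncertain.

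In the lectin arm, 1 of 5 members rose and 3 fell in TruSeq (20.0% and 60.0%, against 12.3% and 21.8% of all genes), 1 rose and 2 fell in Pico (20.0% and 40.0%, against 6.78% and 10.8%), and none was called in V4. There 3 members had an unadjusted p under 0.05 by limma-voom, edgeR called 0 and DESeq2 called 1, Mbl1, which was also called with TMM factors (0.54, adjusted p = 0.0494). Mbl1, one of the 2 mannose-binding lectins of the mouse, had 3076, 2624 and 2908 counts with IL-1β against 2248, 1965 and 2009 in TruSeq (0.51 ± 0.101, adjusted p = 0.00356). In Pico it had 542, 540 and 500 against 478, 332 and 388 (0.44 ± 0.144, adjusted p = 0.0425), and the call was kept only without saline mouse UNT.9574. Mbl2, the other lectin, was not called, with values of -0.21 in TruSeq, -0.16 in Pico and -0.03 in V4 (0.14 with TMM factors). Fcna, a ficolin that macrophages make, fell in TruSeq from 335, 309 and 330 counts to 169, 166 and 214 (-0.79 ± 0.13, adjusted p = 0.0013) beside the Kupffer markers given above. It was at -0.20 in Pico and -0.62 in V4 without a call.

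Both proteases of the lectin arm fell in the stranded kits. Masp1 had 1455, 1548 and 1487 counts with IL-1β and 2594, 2439 and 2291 with saline in TruSeq, and 700, 702 and 760 against 1068, 986 and 1005 in Pico. No library of one group reached the other, and the V4 counts of 615, 675 and 493 against 824, 954 and 865 did not overlap either. The log2 fold changes were -0.66 ± 0.0923 in TruSeq (adjusted p = 0.000538), -0.47 ± 0.106 in Pico (adjusted p = 0.00462, not called by edgeR) and -0.57 ± 0.186 in V4 (adjusted p = 0.0764). Masp2, the protease that cleaves C4 and C2 in this arm, had 2239, 2170 and 2434 against 3317, 3458 and 3539 counts in TruSeq (-0.55 ± 0.087, adjusted p = 0.00105) and 539, 505 and 539 against 752, 897 and 775 in Pico (-0.58 ± 0.118, adjusted p = 0.0022). In V4 the counts of 2765, 2439 and 2932 against 2907, 2829 and 3524 overlapped (-0.18 ± 0.148, adjusted p = 0.527). V4 carries no strand, and 54.94% of the Masp2 exon bases overlap Tardbp on the other strand, so V4 reads of the 2 genes cannot be told apart there. The Masp2 window (chr4:148602294-148602593, plus strand) holds a STAT match at position -53, in capitals.
Masp2: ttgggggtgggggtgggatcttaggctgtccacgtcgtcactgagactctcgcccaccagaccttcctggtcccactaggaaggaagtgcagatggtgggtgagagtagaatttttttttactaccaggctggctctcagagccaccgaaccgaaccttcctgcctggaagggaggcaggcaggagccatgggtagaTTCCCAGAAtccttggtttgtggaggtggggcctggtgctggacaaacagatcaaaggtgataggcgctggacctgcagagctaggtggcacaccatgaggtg

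In the terminal arm no member rose, and 6 of 7 fell in TruSeq (85.7%, against 21.8% of all genes), 4 in Pico (57.1%, against 10.8%) and 0 in V4 by limma-voom (against 7.41%). With TMM factors 2 of 7 fell in TruSeq and in Pico, against 16.1% and 8.16% of all genes. In V4, 3 members had an unadjusted p under 0.05, and edgeR and DESeq2 called 0. In the other kits edgeR called 2 terminal members each, C8a and C8b. C8a and C8b, which encode 2 chains of C8 and lie side by side on chromosome 4, changed the most of those called. C8a (minus strand, 104488284 to 104549003) had 8337, 7651 and 9130 counts with IL-1β and 15164, 12753 and 11080 with saline in TruSeq, and 2162, 2114 and 2489 against 3800, 3078 and 2841 in Pico. C8b (plus strand, 104438922 to 104477153) had 3588, 2824 and 3472 against 6131, 5162 and 4533 in TruSeq, and 1177, 921 and 1247 against 1895, 1606 and 1541 in Pico. All IL-1β libraries were below all saline libraries in both kits, and saline mouse UNT.9574 was the highest each time. The log2 fold change of C8a was -0.58 ± 0.126 in TruSeq (adjusted p = 0.00593) and -0.49 ± 0.108 in Pico (adjusted p = 0.00441), and that of C8b -0.63 ± 0.135 (adjusted p = 0.00559) and -0.57 ± 0.121 (adjusted p = 0.00321). The Pico call of C8a was lost without IL-1β mouse ILB.9579 (-0.46) or ILB.9582 (-0.45), and that of C8b without ILB.9582 (-0.44). In V4, saline mouse UNT.9576 stood apart with 2807 counts of C8a, beside 5899 and 5063 in the other saline mice and 2240 to 2936 with IL-1β. Without it, the adjusted p of C8a in V4 was 0.00599 and that of C8b 0.00505. The C8a window (chr4:104876349-104876648, minus strand) holds a STAT match at position -228, in capitals, and the C8b window (chr4:104766067-104766366, plus strand) holds none of the motifs.
C8a: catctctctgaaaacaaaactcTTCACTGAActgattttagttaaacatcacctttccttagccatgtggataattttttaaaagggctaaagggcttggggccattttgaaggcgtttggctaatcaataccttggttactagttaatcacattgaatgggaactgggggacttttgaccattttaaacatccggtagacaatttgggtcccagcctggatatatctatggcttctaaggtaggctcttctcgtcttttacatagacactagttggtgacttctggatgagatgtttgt
C8b: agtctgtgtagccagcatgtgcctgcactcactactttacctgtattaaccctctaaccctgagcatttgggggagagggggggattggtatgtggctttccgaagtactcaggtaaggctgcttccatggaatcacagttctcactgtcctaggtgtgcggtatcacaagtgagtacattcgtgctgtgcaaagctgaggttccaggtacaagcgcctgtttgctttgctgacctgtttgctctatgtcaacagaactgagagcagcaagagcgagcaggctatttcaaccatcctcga

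The other terminal members that fell did so by less and depended on the scaling. Hc, the gene of C5, was at -0.46 ± 0.115 in TruSeq (adjusted p = 0.0117) and -0.30 ± 0.0932 in Pico (adjusted p = 0.0323), and C9, the pore-forming subunit, at -0.46 ± 0.152 (adjusted p = 0.0409) and -0.33 ± 0.108 (adjusted p = 0.0411). C6 was called lower in TruSeq (-0.41 ± 0.134, adjusted p = 0.0411), as was C8g, the third chain of C8 (-0.26 ± 0.0836, adjusted p = 0.0397). With TMM factors, C8a and C8b kept their calls in TruSeq and Pico, and Hc, C6, C8g and C9 did not, at adjusted p-values of 0.063 to 0.418 in TruSeq. The fits that left out a mouse kept few of these calls: in TruSeq, C6 and C9 were called only without saline mouse UNT.9576 and C8g only without saline mouse UNT.9574. In Pico, the call of Hc was kept only without IL-1β mouse ILB.9583 and that of C9 only without saline mouse UNT.9576. Hc in TruSeq lost its call without IL-1β mouse ILB.9579 (-0.44) or ILB.9582 (-0.46). C7 was close to the limit of detection, with 3 to 5 counts with IL-1β and 6 to 15 with saline in TruSeq, 0 to 5 in Pico, and 2 counts in a single V4 library. Alb (-0.61), Cps1 and Cyp2e1, 3 of 6 hepatocyte markers, also fell in TruSeq, with summed counts of 820001 to 902186 against 1158954 to 1398127 for the list, while Tat rose. Their part in the fall of the terminal members was not tested.

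**Figure D2:**
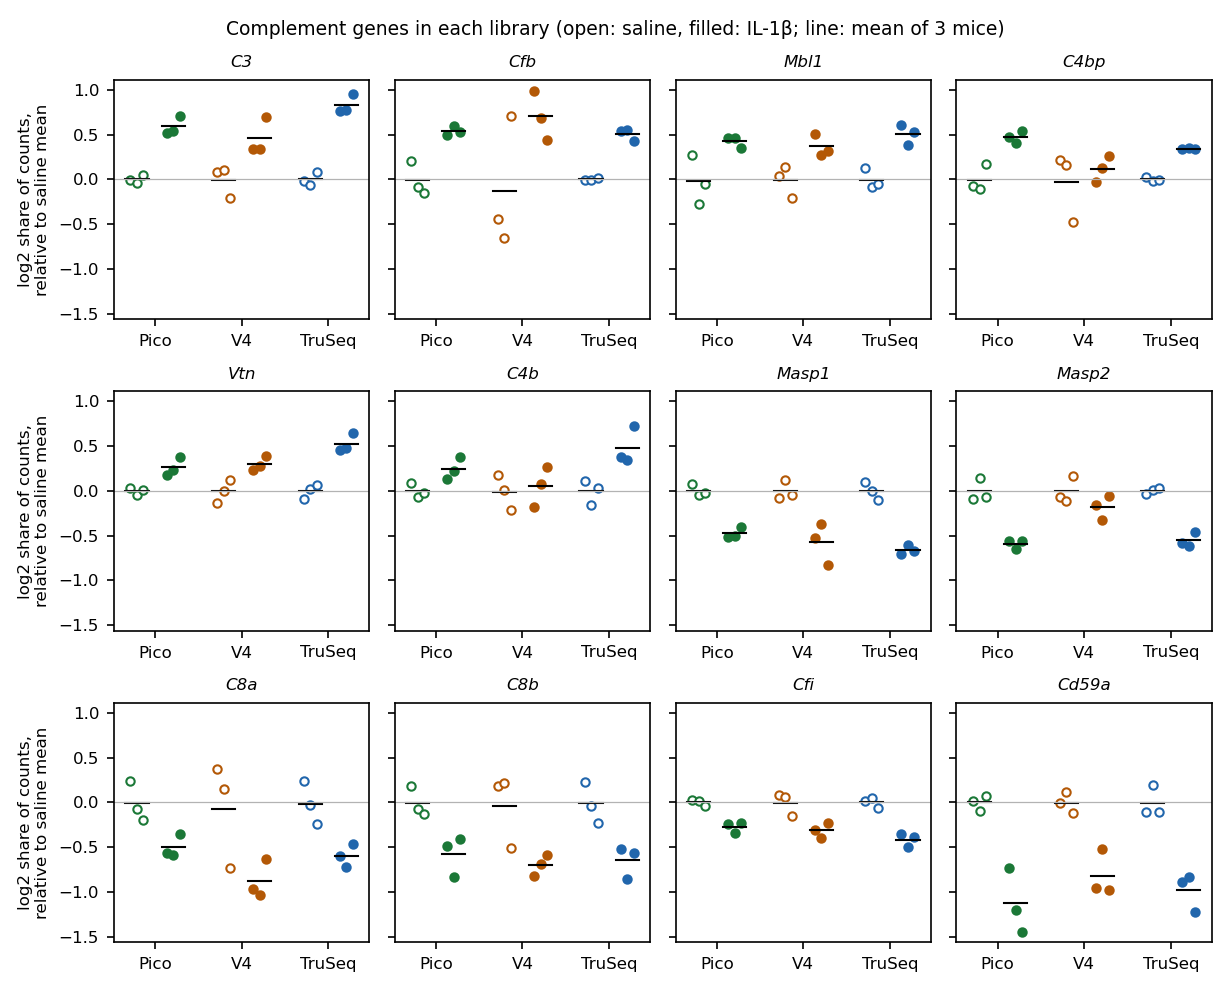
Share of gene counts (vertical axis, log2, relative to the saline mean of the kit) of 12 complement genes in each of the 18 libraries, with open points for saline, filled points for IL-1β and a line at the mean of 3 mice. The groups are apart in each kit for C3, Mbl1 and Vtn (higher) and for Masp1, C8b, Cfi and Cd59a (lower), and in V4 a saline mouse reaches the IL-1β points for Cfb and C8a.

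Among the regulators, 4 of 7 rose and 2 fell in TruSeq (57.1% and 28.6%, against 12.3% and 21.8% of all genes), 2 rose and 2 fell in Pico (28.6% each, against 6.78% and 10.8%), and 1 fell in V4 (14.3%, against 7.41%). The share that fell in TruSeq was near that of all genes. Cd59a, a membrane-anchored inhibitor that blocks C9 from completing the attack complex (ENSMUSG00000032679, chromosome 2, plus strand, 103935958 to 103955511), was the member with the largest fall that was called in all 3 kits. In Pico it had 164, 118 and 100 counts with IL-1β against 277, 260 and 293 with saline. The V4 counts were 737, 987 and 719 against 1402, 1543 and 1339, and the TruSeq counts 389, 403 and 309 against 682, 851 and 690. No IL-1β library reached a saline library in any kit. The log2 fold change was -1.12 ± 0.191 in Pico (0.46 times the saline level, adjusted p = 0.00054), -0.82 ± 0.18 in V4 (0.568 times, adjusted p = 0.0158) and -0.97 ± 0.137 in TruSeq (0.51 times, adjusted p = 0.000578). In V4 the call was lost without saline mouse UNT.9574 (-0.82), saline mouse UNT.9575 (-0.76), IL-1β mouse ILB.9579 (-0.75) or IL-1β mouse ILB.9583 (-0.74). The Cd59a window (chr2:104095551-104095850, plus strand) holds none of the 3 motifs.
Cd59a: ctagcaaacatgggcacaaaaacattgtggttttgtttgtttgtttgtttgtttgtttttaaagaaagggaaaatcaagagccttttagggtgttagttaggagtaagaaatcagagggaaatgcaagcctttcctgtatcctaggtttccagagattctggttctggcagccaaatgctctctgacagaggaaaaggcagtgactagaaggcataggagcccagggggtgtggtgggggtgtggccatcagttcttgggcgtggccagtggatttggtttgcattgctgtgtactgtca

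The soluble inhibitors did not move together. C4bp, a cofactor for the breakdown of C4b, rose in TruSeq from 7553, 7433 and 7474 counts to 9192, 9193 and 9178 (0.34 ± 0.077, adjusted p = 0.00773), and in Pico from 1397, 1377 and 1676 to 2024, 1918 and 2120 (0.48 ± 0.0978, adjusted p = 0.00243). In V4 C4bp was at 0.15 ± 0.181, and the groups overlapped (adjusted p = 0.669). Vtn encodes vitronectin, which keeps the attack complex from entering membranes, and had 33202, 33596 and 37853 counts against 23316, 25297 and 26344 in TruSeq (0.52 ± 0.0876, adjusted p = 0.00144). Its value was 0.26 ± 0.069 in Pico (adjusted p = 0.0132, and called only without IL-1β mouse ILB.9579 among the leave-one-out fits) and 0.30 ± 0.103 in V4 (adjusted p = 0.0857, and 0.0176 with TMM factors). Clu, the gene of clusterin with a like role, and Serping1, the C1 inhibitor, rose in TruSeq, at 0.29 ± 0.0804 (adjusted p = 0.0186) and 0.27 ± 0.0784 (adjusted p = 0.0234, lost without IL-1β mouse ILB.9582). In Pico they were at 0.18 and 0.09 and not called, although Clu was called higher there with TMM factors (0.31, adjusted p = 0.00521), by edgeR and by DESeq2. In V4 they were at 0.14 and 0.22. Cfi encodes the protease factor I, which inactivates C3b and C4b, and fell in TruSeq from 8100, 8429 and 7795 counts to 6157, 5532 and 6016 (-0.42 ± 0.0853, adjusted p = 0.00449, not called by edgeR) and in Pico by 0.27 on the log2 scale (SE 0.0829, adjusted p = 0.0313, and 0.309 with TMM factors), where the call was kept only without saline mouse UNT.9576. Cd55, the membrane-bound decay-accelerating factor, was not called in any kit. The Vtn window (chr11:78498870-78499169, plus strand) holds a STAT match at position 36, in capitals.
Vtn: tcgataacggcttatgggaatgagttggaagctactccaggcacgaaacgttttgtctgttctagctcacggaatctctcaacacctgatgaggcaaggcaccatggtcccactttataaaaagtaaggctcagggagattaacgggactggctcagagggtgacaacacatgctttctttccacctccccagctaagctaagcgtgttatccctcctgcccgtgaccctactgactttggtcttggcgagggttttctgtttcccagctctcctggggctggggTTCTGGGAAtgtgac

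The receptors were at low counts. C5ar1, the receptor for the anaphylatoxin C5a on myeloid cells (ENSMUSG00000049130, chromosome 7, minus strand, 16832092 to 16844889), rose in TruSeq. Its counts there were 24, 46 and 37 with IL-1β and 11, 8 and 12 with saline. In Pico they were 13, 14 and 20 against 7, 5 and 3, and in V4 52, 90 and 30 against 21, 7 and 8. The groups were apart in each kit. The log2 fold change was 1.75 ± 0.359 in TruSeq (3.37-fold, adjusted p = 0.00443), 1.63 ± 0.621 in Pico (adjusted p = 0.0851) and 2.25 ± 0.714 in V4 (adjusted p = 0.0687, while edgeR and DESeq2 called it there), and the TruSeq call was lost when the libraries were thinned to 4024632 counts. C3ar1, the receptor for C3a, had 0 to 36 counts per library and was not called in any kit. Neutrophils carry C5ar1, and their markers rose in the same libraries: 6 of 7 in TruSeq and V4 and 6 of 6 in Pico. The summed counts were 524 to 1050 against 23 to 39 in TruSeq, 523 to 1030 against 25 to 56 in V4 and 130 to 197 against 1 to 7 in Pico, and Ngp and Camp were at 0 in all saline libraries of TruSeq. Monocyte markers summed to 49 to 92 against 23 to 44 in TruSeq, with 2 of 5 called higher. The part of these cells in the C5ar1 values was not tested.

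A separate list held 28 other genes of the pathway, of which 24 were measured in TruSeq, 22 in V4 and 24 in Pico. In TruSeq 2 rose and 11 fell (8.33% and 45.8%, against 12.3% and 21.8% of all genes), in Pico 3 rose and 8 fell (12.5% and 33.3%, against 6.78% and 10.8%), and in V4 2 rose and 5 fell (9.09% and 22.7%, against 3.6% and 7.41%). With TMM factors 5 rose and 10 fell in TruSeq, against 16.7% and 16.1% of all genes. In Pico 3 rose and 6 fell with these factors (against 9.16% and 8.16%), and in V4 2 rose and 2 fell (against 4.79% and 4.84%). On library totals the median log2 fold change was -0.48, -0.44 and -0.41. Those lower in all 3 kits included C1rl (-0.80 in TruSeq), a protease related to C1r, the collectin Colec11 (-1.73), the carboxypeptidase N subunit Cpn2 (-0.97) and Vsig4 (-1.42), a C3b receptor of Kupffer cells that is also in the marker list above. Those lower in Pico and TruSeq included Cfhr2 (-0.61 in TruSeq), Gm4788 (-0.68) and the collectin Colec10 (-1.69). Colec11 had 118, 96 and 105 counts with IL-1β and 354, 387 and 351 with saline in TruSeq. Higher in all 3 kits were Itgam (2.42 in TruSeq), a chain of complement receptor 3 on myeloid cells, and Cd93 (1.21), a surface protein of endothelial and myeloid cells. With TMM factors the V4 calls of C1rl and Cpn2 were lost (adjusted p = 0.0985 and 0.0582), as were the Pico calls of Cfhr2 and Gm4788 (adjusted p = 0.153 and 0.121). Of the 6 fits that left out a mouse, 2 kept the V4 calls of C1rl, Vsig4 and Itgam and 3 those of Cpn2 and Cd93, while in Pico 2 kept that of Cfhr2, 4 that of Gm4788 and 3 that of Colec11.

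In TruSeq and Pico the rise in the summed counts of the members fell mainly on C3. The 33 members held 2.72% ± 0.177 of the gene counts with IL-1β and 2.08% ± 0.0633 with saline in TruSeq (SD, n = 3 mice), 2.73% ± 0.185 against 2.19% ± 0.0591 in Pico, and 1.61% ± 0.0953 against 1.51% ± 0.0764 in V4. C3 alone held 1.35% against 0.762% in TruSeq, 1.65% against 1.09% in Pico and 0.233% against 0.169% in V4. In V4, Vtn had a mean of 51208 counts with IL-1β and 41805 with saline, beside 28182 and 20477 for C3. Without C3, the other members held 1.37% against 1.32%, 1.08% against 1.10% and 1.37% against 1.34%, differences within the spread between mice. Within this sum the arms moved apart. The regulators held 0.663% against 0.535% in TruSeq, 0.492% against 0.440% in Pico and 0.942% against 0.830% in V4. The terminal members held 0.287% against 0.407%, 0.270% against 0.352% and 0.187% against 0.253%. These sums weigh long and abundant transcripts most, and no test was made of them.

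**Figure D3:**
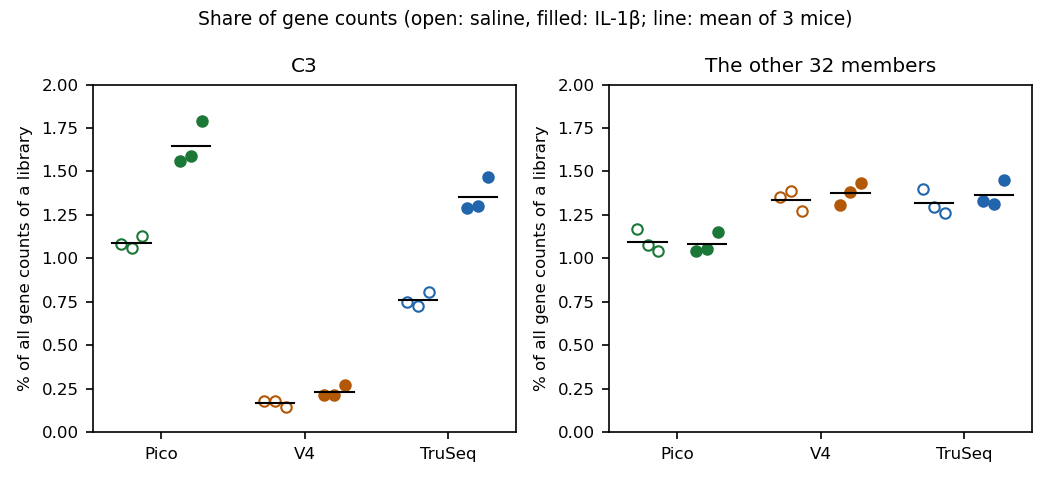
Percentage of all gene counts of a library (vertical axis, from 0) that fell on C3 (left) and on the other 32 complement genes (right), per kit, with open points for saline, filled points for IL-1β and a line at the mean of 3 mice. The C3 points rise with IL-1β in each kit, most in TruSeq and Pico, while the points of the other members overlap.

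Levels between genes were compared as RPKM (reads per kb of exon, scaled to the gene counts of the library) within a kit. In the saline livers of TruSeq, C3 was the highest at 1484 ± 81.6 (SD, n = 3), followed by Vtn at 964 ± 51.6, Clu at 385 ± 12.5, Serping1 at 335 ± 6.26 and Cfi at 306 ± 12.8. The gaps from C3 to Vtn and from Vtn to Clu were wider than the spread between mice. C8a at 280 ± 46.6, C9 at 277 ± 61.6, Mbl2 at 292 ± 21 and C4b at 254 ± 23.8 did not differ beyond their spread. This order rests on the union of exons: over the longest transcript Clu was at 731 and C9 at 393, above Cfi, while C3 and Vtn (1122) still led. At the low end stood Cd55 at 2.45 ± 0.181, C3ar1 at 0.48 ± 0.163, C7 at 0.322 ± 0.136 and C5ar1 at 0.315 ± 0.0633. With IL-1β, C3 stood at 2639 ± 195 and Vtn at 1387 ± 102 in TruSeq. The order was another in the saline livers of V4, where Vtn was the highest at 1693 ± 151 and C3 had rank 6 at 329 ± 37.8.

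**Figure D4:**
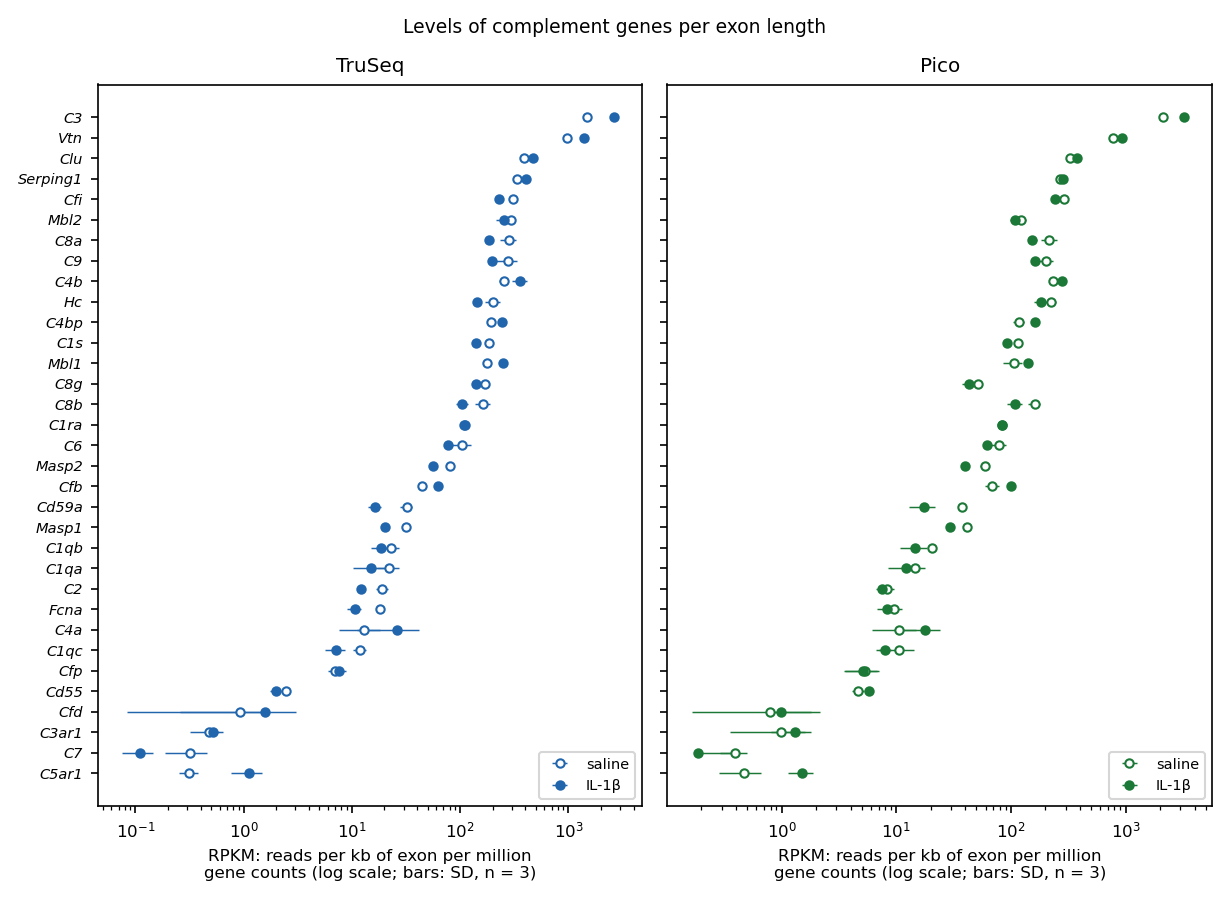
RPKM computed over gene counts (horizontal axis, log scale) of the 33 complement genes in TruSeq and Pico, ordered by the saline level in TruSeq, with open points for saline, filled points for IL-1β and bars of 1 SD over 3 mice, the lower bar being left out where the SD exceeds the mean. C3 and Vtn stand at the top of both kits and Cfd, C3ar1, C7 and C5ar1 at the bottom.

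The share of a gene in the counts also depended on the kit. C3 was 5.14-fold lower in V4 than in TruSeq (mean log2 ratio -2.36 ± 0.263, SD, n = 6 mice) and Hc 7.04-fold lower (-2.81 ± 0.164), while C8g was 3.63-fold higher in V4 (1.86 ± 0.0694). In Pico, C8g was 3.29-fold lower than in TruSeq (-1.72 ± 0.141) and C3 1.32-fold higher (0.40 ± 0.132). The longest annotated transcripts of C3 and Hc have 5132 and 5445 bases and that of C8g 1150 bases. The part of transcript length in the ratios between kits was not tested. The kits differ in input, and TruSeq also differs from Pico and V4 in read length, sequencer and time of sequencing. A kit cannot be told apart from these.

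Whether the response itself differed between kits was tested by the interaction of kit and treatment over 12 libraries. The main fit took these libraries as independent, although the mouse pairs them across kits. None of the 33 members passed in any pair of kits by limma-voom, where 0.0% of all genes did in each pair, nor by edgeR or DESeq2. With the mouse as a random replicate block, 0 members passed in each pair as well. In the main fit the smallest adjusted p was 0.900 (Pico against TruSeq), 0.718 (V4 against TruSeq) and 0.903 (Pico against V4). In this order, 4, 3 and 0 members had an unadjusted p under 0.05 (12.1%, 9.09% and 0.0%, against 5.49%, 6.36% and 5.49% of all genes). C3 was among them in the first pair, with a response 0.24 lower in Pico than in TruSeq (difference -0.24, 95% interval -0.44 to -0.04). With the mouse as a fixed replicate block, a fit chosen after the data were seen, this difference passed the test (-0.24 ± 0.0187, adjusted p = 0.00151), the only gene to do so. The median half-width of the 95% interval was 0.39 on the log2 scale for Pico and TruSeq and 0.49 for V4 and TruSeq. These intervals are not adjusted for the number of genes tested, so larger differences could be missed as well. In Pico and TruSeq, the differences of C2 (0.54), Fcna (0.59) and Cd55 (0.64) had an adjusted p of 0.900. For Cd59a the differences were -0.15 (-0.65 to 0.35) and 0.16 (-0.34 to 0.65). The libraries of a mouse share its RNA, so the kits are not independent tests of the treatment.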

How the data were processed

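Liver RNA of 3 IL-1β and 3 saline mice was sequenced with 3 kits, 1 library per mouse and kit. Per the labels and the study's methods, the authors aligned reads to mm9 with GSNAP (both also named in the submitters' processing notes), removed ribosomal reads, used PORT to resample the reads of each kit to 1 depth and counted reads per gene. The deposited values are whole-number counts, of sense reads in Pico and TruSeq and of either strand in V4. They were taken to be uniquely mapped reads. The study describes a repeat run for Pico and for TruSeq, and the labels do not state which run the counts hold. The 3 tables were normalized separately, so each kit was fitted by itself.

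Counts with library totals were fitted by limma-voom (limma 3.58.1, R 4.3.3) over genes with at least 1 count in the kit, with Benjamini-Hochberg adjustment over all of them, and differences between kits by an interaction over 12 libraries. The fit within each kit was also run on counts simulated from those of the kit, and the outcome is not given here. Alternatives were TMM factors and edgeR's quasi-likelihood test (edgeR 4.0.16), DESeq2 (1.42.0), at least 10 counts in 3 libraries, no filter, thinning to 4024632 counts (median of 5 draws), other thresholds, leaving out each mouse, and the mouse as a replicate block. The mouse pairs libraries by design. Deviations from group means correlated at 0.0591 to 0.406 for the same mouse across kits and at -0.321 to -0.02 for different mice, over genes averaging 20 counts or more in both kits. Per-length levels used the union of exons in the mm9 GENCODE annotation. Summaries used Python 3.11.15 with pandas 2.3.3.

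All 33 members are named, with values in every library for those called in the same direction in all 3 kits or called in any kit at an absolute log2 fold change of at least 1. Members and lists were chosen with earlier results of these data known. Precision is limited by 3 mice per group and, for genes with few counts, by depth. Some genes of the list of other pathway genes were counted but are not reported by name here.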

Additional observations from a re-analysis of the deposited data

Results flagged for a closer look

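Cd55, the decay-accelerating factor, was flagged because its libraries moved in opposite directions in Pico and TruSeq. In Pico all 3 IL-1β libraries (111, 118 and 112 counts) were above all saline libraries (92, 82 and 104), at a log2 fold change of 0.33 ± 0.207 (SE, limma-voom adjusted p = 0.334). In TruSeq all 3 IL-1β libraries (104, 131 and 121 counts) were below all saline libraries (162, 152 and 142), at -0.32 ± 0.143 (adjusted p = 0.122). The difference between the kits was 0.64 ± 0.239 (unadjusted p = 0.0155 from the limma-voom interaction), and it did not pass after adjustment over all genes (adjusted p = 0.900, and 0.659 with the mouse as a fixed replicate block). V4 had 44, 25 and 102 counts with IL-1β and 107, 93 and 48 with saline. Of the 100-base windows of Cd55, 4.19% occur also in Daf2, and 2.1% of its exon bases overlap Gm16083 on the other strand.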

How the results depend on the processing

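No called member changed direction under any alternative. The number of members that rose in Pico was 7 and became 3 at a threshold of 0.01, and 3 to 5 when a mouse was left out. The number that fell in Pico was 9, and 5 with TMM factors, 4 with edgeR, 5 with DESeq2, 5 at 0.01 and 4 to 8 when a mouse was left out. In V4, 1 member rose. This count was 3 with TMM factors, 4 with edgeR, 6 with DESeq2, 0 with the filter of 10 counts in 3 libraries, 0 at a threshold of 0.01, 4 at 0.1, 0 after thinning and 0 to 2 when a mouse was left out. The 2 that fell in V4 became 4 with the filter, 0 at 0.01, 7 at 0.1 and 0 to 9 when a mouse was left out. In TruSeq, 14 fell, 8 with edgeR and 10 to 13 when a mouse was left out, and 9 rose, 8 or 9 when a mouse was left out. Calls over all genes moved too. Those lower in TruSeq were 4232, 3086 with edgeR and 3239 to 3585 when a mouse was left out. Those lower in Pico were 1951, 1478 with TMM factors, 1745 with edgeR and 1473 with DESeq2. Those higher in V4 were 649, 864 with TMM factors, 930 with edgeR and 1129 with DESeq2. C1s, Hc, C9 and Cfi lost their Pico calls with TMM factors, edgeR and DESeq2 alike, and C6, C8g and C9 theirs in TruSeq, where edgeR also lost C1s, Hc and Cfi. The cause was not tested.

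The replicate block by random mouse effect gave 0 members with a different response between kits, and the fixed replicate block, added after the data were seen, gave 1 for Pico and TruSeq (C3) and 0 for the other pairs. Leaving C3 out moved the summed share of gene counts from 2.73% to 1.08% with IL-1β and from 2.19% to 1.10% with saline in Pico, from 1.61% to 1.37% and from 1.51% to 1.34% in V4, and from 2.72% to 1.37% and from 2.08% to 1.32% in TruSeq. Depth limits C7, Cfd, C3ar1 and C5ar1, which had under 50 counts in most libraries.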
